A study of Mus musculus with 8 samples.

Results

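Isolated promoters were defined by position alone, as genes with no other gene of the deposited table whose transcription start site (TSS) lay within 300 kb on either side on the same chromosome. The rule selected 504 of 14861 listed genes and left 14357 others. The study measured nascent RNA by PRO-seq, which locates polymerases on DNA by the RNA they are extending, in mouse induced pluripotent stem cells. The cells were a clonal line that carries the FUCCI2 cell cycle reporter, so all values describe 1 clone. They were grown with FBS and LIF and with 2i, a pair of kinase inhibitors that holds stem cells in the naive state, over irradiated feeder cells. There were 4 groups. Mitotic cells were held with nocodazole, which blocks the spindle, at 200 ng/ml for 6 h and collected by shake-off. Cells released from that block were taken after 1 h, in the column called early G1, and after 3 h, in the column called late G1. Asynchronous cells received no nocodazole. Each group had 2 libraries, which the table gives as 1 combined column, so no spread between replicates could be computed. All differences below are therefore descriptions without a test, and their depth is unknown. In bulk libraries, fewer cells that transcribe a gene and less transcription per cell cannot be told apart.

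Mammalian genomes alternate between gene-dense stretches and gene-poor stretches, sometimes called gene deserts. Genes in deserts are often developmental regulators, whose enhancers can lie far away, or long genes of neurons and cell adhesion. During mitosis, transcription falls across the genome as chromosomes condense and most long-range chromatin contacts are lost. Transcription and those contacts return as cells pass into G1.

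The isolated promoters lay far from their neighbours. The median distance to the nearest listed TSS was 499 kb, with quartiles of 375 and 780 kb, against 21.3 kb for the other genes. That distance was over 500 kb for 252 isolated promoters and over 1000 kb for 76. RefSeq coding genes that the table does not list were also sparse there. A median of 1 other coding gene reached within 300 kb of an isolated TSS, against 11 for the other genes, and 168 isolated promoters had none. The upper quartile was 2, but some had more, such as Psd4 with 8 and Ppp2r3d with 6, both described below. The TSS of 15 isolated promoters (2.98%) lay inside another coding gene, against 3.60% of the other genes. For 162 isolated promoters the nearest listed gene was itself isolated, and 49 such pairs were each other's nearest gene. The X chromosome held the most isolated promoters for its listed genes, 45 of 418 (10.8%), and chromosome 11 the fewest, 13 of 1280 (1.02%). Just inside the limit lay Rps23 at 300.8 kb, Zfp648 at 301.0 kb and Dmrta2 at 301.5 kb. Just outside lay Tmem18 at 299.9 kb, Nectin1 at 299.4 kb and Gm11011 at 298.1 kb.

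Upstream sequences are shown for 7 isolated promoters on which the results turn, because they span the range of behaviours described below. Tusc1 had G1 values close to its asynchronous one, and Plk2 kept nearly all of its asynchronous signal in mitosis. Btg1 and Epha4 stood above the asynchronous level from 1 h, and Rprm only at 3 h. Sall1 stayed below the asynchronous level in G1, and Diaph2 is a long gene with one of the largest distances. Each sequence is the 120 bases before the RefSeq start, read 5′ to 3′ on the gene's strand, from RefSeq on GRCm38.p6. Capitals mark CG, the dinucleotide of CpG islands, and TATAAA, the core of the TATA box. The Tusc1 sequence is chr4:93335512-93335631 (minus strand). The Plk2 sequence is chr13:110394924-110395043 (plus strand). The Btg1 sequence is chr10:96616881-96617000 (plus strand). The Epha4 sequence is chr1:77515089-77515208 (minus strand). The Rprm sequence is chr2:54085553-54085672 (minus strand). The Sall1 sequence is chr8:89044163-89044282 (minus strand). The Diaph2 sequence is chrX:129749622-129749741 (plus strand).
Tusc1: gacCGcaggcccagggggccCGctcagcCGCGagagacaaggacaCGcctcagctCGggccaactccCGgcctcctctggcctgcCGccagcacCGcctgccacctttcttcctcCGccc
Plk2: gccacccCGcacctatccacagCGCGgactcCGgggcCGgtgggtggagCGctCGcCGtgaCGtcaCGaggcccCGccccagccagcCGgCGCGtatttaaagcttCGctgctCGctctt
Btg1: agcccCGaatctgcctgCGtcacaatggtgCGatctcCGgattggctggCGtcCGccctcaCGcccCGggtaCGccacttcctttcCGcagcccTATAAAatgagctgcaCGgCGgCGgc
Epha4: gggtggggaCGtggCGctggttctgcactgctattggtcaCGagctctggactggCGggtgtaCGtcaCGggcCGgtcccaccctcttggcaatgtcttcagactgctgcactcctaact
Rprm: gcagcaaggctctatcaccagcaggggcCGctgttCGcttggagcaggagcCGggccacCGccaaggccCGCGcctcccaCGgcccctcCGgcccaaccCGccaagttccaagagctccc
Sall1: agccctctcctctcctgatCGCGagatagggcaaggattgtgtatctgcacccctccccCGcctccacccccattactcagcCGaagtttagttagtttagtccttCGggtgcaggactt
Diaph2: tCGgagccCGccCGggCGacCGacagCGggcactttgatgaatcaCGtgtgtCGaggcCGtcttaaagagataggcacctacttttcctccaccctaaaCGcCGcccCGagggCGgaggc

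These 7 stretches hold 10, 16, 13, 7, 9, 5 and 13 CG dinucleotides in the order shown. Over 32851 RefSeq promoters, the median was 3, with quartiles of 1 and 9. Btg1 alone among the 7 has TATAAA on the gene's strand in its last 40 bases, where 2.31% of RefSeq promoters hold it. A RefSeq start within 100 bp of the table's TSS was found for 265 of the 504 isolated promoters (52.6%), so a comparison of promoter composition between isolated and other genes would be void and was not made.

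The genes behind isolated promoters were long. From the TSS to the far end of the RefSeq gene, their median length was 67.9 kb, with quartiles of 15.9 and 186 kb, over the 499 with a RefSeq match. The other genes had a median of 18.9 kb with quartiles of 7.84 and 43.6 kb. A length over 300 kb was found for 61 isolated genes (12.2%) and for 134 others (0.965%).

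The isolated genes included many developmental regulators and adhesion genes. The lists go by gene symbol, and a gene can be on more than 1 of them. Isolated promoters were 25 of 144 listed genes of cell adhesion and axon guidance (17.4%) and 39 of 305 developmental transcription factors (12.8%), against 401 of 13296 genes in no list (3.02%). The adhesion genes included the cadherins Cdh2, Cdh4 and Cdh13, the Eph receptors Epha3, Epha4 and Epha7, and the guidance receptors Robo1, Nrp1 and Nrp2. Their median length was 212 kb. The transcription factors included Sox2, Sox3, Sox4, Sox9 and Sox11, the Iroquois genes Irx1, Irx2, Irx3 and Irx5, and Gata6, Gli2, Gli3, Foxa1 and Meis1. Their median length was 16.7 kb. Of 29 naive pluripotency factors, 5 were isolated (Lifr, Mycn, Nr0b1, Nr5a2 and Sox2). Ion channels and neurotransmitter receptors gave 10 of 168 (5.95%), growth factors and morphogens 6 of 123 (4.88%) and extracellular matrix 4 of 95 (4.21%). G protein-coupled receptors gave 3 of 112 (2.68%), zinc finger proteins 11 of 428 (2.57%) and ribosomal proteins 1 of 87 (1.15%). Immediate early genes gave 3 of 33, p53 targets 1 of 30, and G2 and mitosis genes 0 of 35.

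Isolated promoters carried little of the signal. Their values summed to 1.68% of the table in mitosis, 1.65% at 1 h, 1.74% at 3 h and 1.38% in asynchronous cells, while they were 3.39% of the genes. The median isolated gene had a normalized signal of 3.67 in asynchronous cells, against 9.70 for the other genes. Its signal was 0.198 in mitosis, 4.97 at 1 h and 5.13 at 3 h, against 0.504, 12.2 and 11.2 for the others. The sources used here do not say whether the signal is divided by gene length, so an order of single genes by signal is used here only to choose which to describe and says nothing of which is transcribed more. Because ratios varied with the level of a gene, the other genes were weighted to the asynchronous levels of the isolated ones. Those matched genes had medians of 0.218 in mitosis, 4.52 at 1 h, 5.34 at 3 h and 3.78 in asynchronous cells. A mean signal of at least 0.5 was reached by 495 of the 504 isolated genes, and 9 fell below it. A value of exactly 0 stood in some column for 21 isolated genes, and such genes were left out of ratios with that column.

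**Figure D1:**
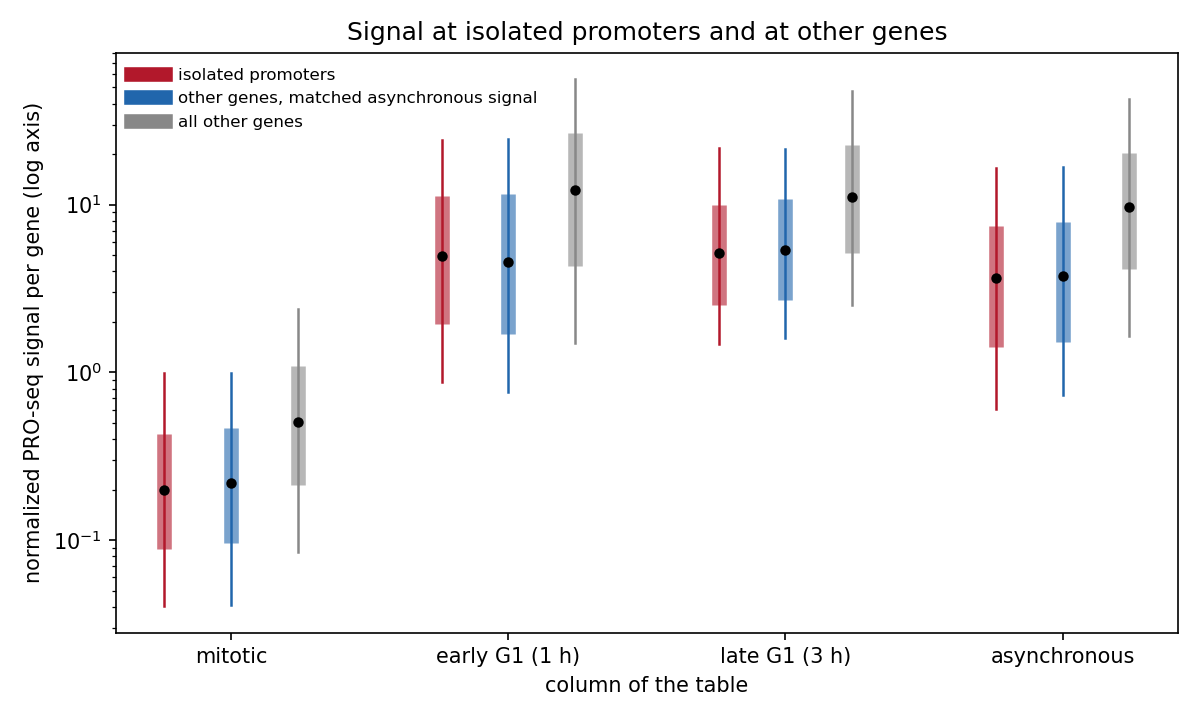
Normalized PRO-seq signal per gene (log axis) in the 4 columns for isolated promoters, for all other genes and for other genes weighted to the asynchronous signal of the isolated ones, with dots at medians and bars from the lower to the upper quartile and thin lines from the 10th to the 90th percentile. The isolated genes had a median of 3.67 in asynchronous cells against 9.70 for all others and 3.78 for the matched genes.

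The 8 isolated genes with the highest listed asynchronous signal are described first. Tusc1, a tumour suppressor candidate, had values of 12.1 in mitosis, 369 at 1 h, 362 at 3 h and 396 in asynchronous cells. Rps23, a protein of the small ribosomal subunit, had 9.07, 237, 215 and 247 in the same order. Cox7c, a subunit of cytochrome c oxidase, had 2.80, 85.0, 78.1 and 79.4. These 3 genes were close to their asynchronous value in both G1 columns, the lowest being Rps23 at 3 h with 87.1%. Sox2, which maintains pluripotency, had 13.6 in mitosis, 299 at 1 h, 317 at 3 h and 226 in asynchronous cells. Zfp536, a zinc finger gene, had 1.51, 63.8, 69.5 and 49.3. Both stood above the asynchronous value in G1, at 133% and 129% at 1 h. Mycn, a MYC family transcription factor, had 2.97, 72.5, 54.6 and 75.7. Ppp2r3d, a regulatory subunit of protein phosphatase 2A, had 8.98, 57.9, 30.2 and 74.6. Rtl1, an imprinted gene derived from a retrotransposon, had 3.35, 29.8, 26.9 and 48.3. Ppp2r3d and Rtl1 were at 40.4% and 55.6% of the asynchronous value at 3 h.

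**Figure D2:**
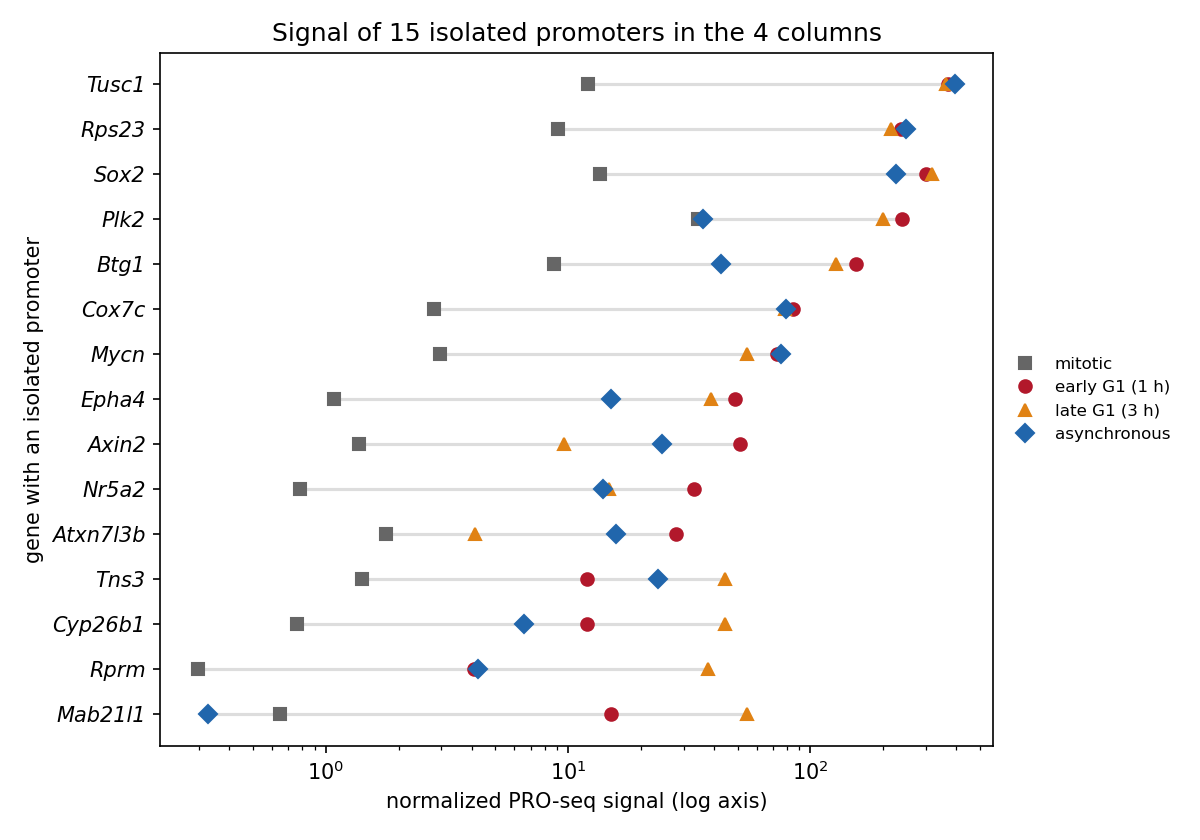
Normalized PRO-seq signal (log axis) of 15 isolated genes in the 4 columns, 1 marker per column and gene. Plk2 has its mitotic marker beside the asynchronous one (34.3 and 36.1), while Rprm and Mab21l1 lie highest at 3 h (37.9 and 54.9).

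In mitosis nearly every isolated promoter lost signal. Of 476 isolated genes compared with asynchronous cells, 470 were at least 2-fold lower and 0 were higher, a share of 98.7% lower. Over all genes the shares were 99.1% lower and 0.0208% higher, so the isolated genes were near the background. Their median log2 ratio of (signal + 0.1) was -3.51, which is 11.4-fold lower. All genes had -3.89, and other genes at matched asynchronous signal -3.56. The added 0.1 understates the fall of genes with low signal. The difference from the matched genes was 0.05 on the log2 scale. Without the 0.1, the median isolated gene kept 5.88% of its asynchronous signal in mitosis, and the median other gene 5.33%. How the authors scaled the columns sets the size of this fall. After the columns were rescaled to equal medians, 54 isolated genes were higher (11.3%) and 16 lower (3.33%), against 9.61% and 6.998% of all genes. After quantile normalization 51 were higher (10.6%) and 15 lower (3.13%), against 8.58% and 6.72%.

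A few isolated genes kept more. Those named here come from the 108 isolated genes whose mean over the columns was no lower than the table's median of 8.49, called brighter genes below. Mab21l1, a gene of eye and neural development whose TSS lies inside the isolated gene Nbea, had 0.646 in mitosis and 0.328 in asynchronous cells. Nbea, which runs on the other strand, had 0.0439 in mitosis, 0.464 at 1 h, 1.30 at 3 h and 0.397 in asynchronous cells, and the sources used here do not say whether reads were assigned by strand. Plk2, a polo-like kinase induced by p53, had 34.3 in mitosis and 36.1 in asynchronous cells, which is 95.0%. Msc, a bHLH repressor of muscle development, kept 52.6% (1.64 and 3.12). Arap2, a GTPase-activating protein for Arf, kept 31.0% (1.08 and 3.50), and Eda2r, a receptor of the TNF receptor family, kept 29.9% (2.60 and 8.69). All 5 were higher at 1 h and at 3 h than in asynchronous cells. The limit on mean signal favours that pattern in genes with low mitotic and asynchronous signal, so it is not a separate result. At the other end of these 108 genes, Alg10b, a glucosyltransferase of N-glycan synthesis, kept 2.19% and Stc2, a secreted glycoprotein hormone, kept 2.76%. Tusc1 and Zfp536 kept 3.05% and 3.06%, and Psd4, an exchange factor for Arf6, kept 2.72%.

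By 1 h after release, isolated promoters were active again. Of 480 isolated genes, 479 were at least 2-fold higher at 1 h than in mitosis (99.8%) and 0 were lower, against 99.3% and 0.00692% of all genes. The median log2 ratio of (signal + 0.1) was 3.92, which is 15.1-fold and understates the rise of genes with low mitotic signal. It was 4.21 for all genes and 3.81 for matched genes, a difference of 0.11 from the matched genes. This ratio shares the mitotic column with the previous comparison, so the results are not independent. With the columns rescaled to equal medians, 26 isolated genes were higher (5.37%) and 62 lower (12.8%), against 4.94% and 13.8% of all genes. With quantile normalization 38 were higher (7.87%) and 35 lower (7.25%), against 5.54% and 8.91%. Epha4, an ephrin receptor, rose from 1.08 to 48.9, and Rdh14, a retinol dehydrogenase, from 0.325 to 17.7. Alg10b rose from 0.259 to 16.1 and Zfp536 from 1.51 to 63.8. The smallest rises among brighter genes were those of Stc2 (1.01 to 5.76), Ppp2r3d (8.98 to 57.9), Mid1ip1, a regulator of lipid synthesis (1.56 to 10.9), Plk2 (34.3 to 239) and Msc (1.64 to 13.4). In mitosis Plk2 and Msc were at 95.0% and 52.6% of their asynchronous value. At 1 h Stc2 and Mid1ip1 were at 15.7% and 37.3% of theirs.

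Relative to asynchronous cells, isolated promoters had a median ratio at 1 h above that of their matched genes. Of 487 isolated genes, 126 were at least 2-fold higher at 1 h (25.9%) and 22 lower (4.52%). The shares were 17.7% and 9.53% over all genes, and 22.5% and 10.4% at matched signal. The median log2 ratio was 0.47, against 0.30 for all genes and 0.33 for matched genes, a difference of 0.14. When the other genes were matched on length as well, the difference was 0.20. With the columns rescaled to equal medians, the split became 59 higher and 40 lower, against 8.72% and 14.9% of all genes. With quantile normalization it was 72 higher and 23 lower, against 9.32% and 11.1%. The difference from the matched genes was 0.12 under both scalings. It was 0.02 for the 164 isolated genes that also had no end of another RefSeq coding gene within 300 kb, of which 43 were higher and 6 lower.

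The return to the asynchronous level was counted over 475 isolated genes with all values above 0 and a mean signal of at least 0.5. At 1 h, 454 (95.6%) were over 50% of the asynchronous level, against 90.7% of all genes and 90.1% at matched signal. At or above the asynchronous level were 341 (71.8%) at 1 h, against 63.9% and 63.6%, and 371 (78.1%) at 3 h, against 62.6% and 73.2%. Only at 3 h did 15 isolated genes (3.16%) pass 50%, against 6.68% of all genes and 8.0% at matched signal. They included Gli2, an effector of Hedgehog signalling (0.689, 6.19, 11.8 and 13.3 in mitosis, 1 h, 3 h and asynchronous cells), Lrrc4, a synaptic adhesion protein (0.400, 1.51, 16.9 and 7.22), and Mid1ip1 (1.56, 10.9, 23.0 and 29.1). In neither G1 column did 6 isolated genes (1.26%) pass 50%, against 2.58% of all genes and 1.93% at matched signal. These were Il1rl2, Stc2, F930015N05Rik, Fam84b, Lor and Gabarapl1. The TSS of F930015N05Rik lies inside another coding gene, as does that of Lrrc4. Stc2 had 1.01, 5.76, 9.80 and 36.6. Gabarapl1, an autophagy protein, had 0.191, 3.27, 3.18 and 7.25. Genes at least 2-fold above asynchronous cells in both G1 columns were 52 (10.9%), against 7.21% of all genes and 12.4% at matched signal. In 71 (14.9%) only the 1 h column reached that fold, against 10.3% of all genes and 9.97% at matched signal. In 70 (14.7%) only the 3 h column did, against 9.29% and 16.2%. No replicate spread stands behind these shares.

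**Figure D3:**
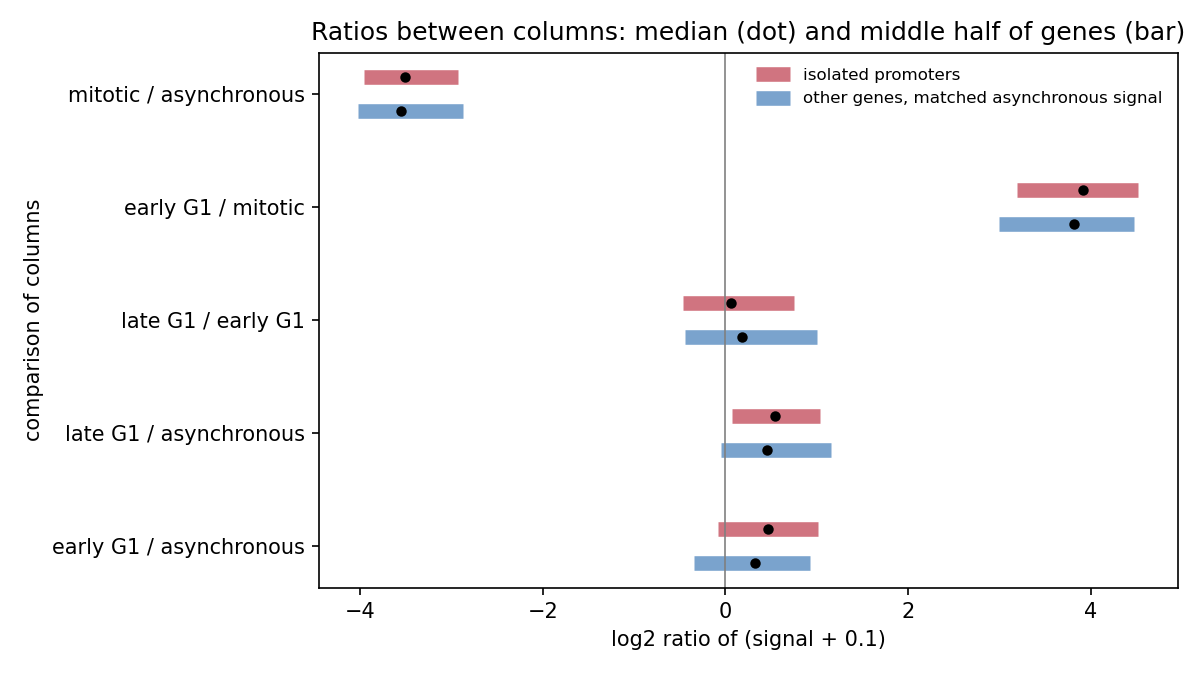
Log2 ratios of (signal + 0.1) between columns for isolated promoters and for other genes at matched asynchronous signal, with dots at medians and bars from the lower to the upper quartile. The isolated and matched medians lie close together in each comparison, and farthest apart for 1 h against asynchronous cells (0.47 and 0.33).

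From 1 h to 3 h most isolated promoters moved little, and a minority moved in either direction. Of 489 isolated genes, 89 were at least 2-fold higher at 3 h (18.2%) and 31 lower (6.34%), against 15.1% and 7.52% of all genes. At matched signal the shares were 25.2% and 7.53%. The median log2 ratio was 0.06 for isolated genes, -0.08 for all genes and 0.18 for matched genes, a difference of -0.12 from the matched genes. It was -0.21 with length matched as well, and 0.03 for the isolated genes with no end of another RefSeq coding gene within 300 kb either, so its sign depended on how isolation was defined. With quantile normalization, 42 isolated genes were higher (8.54%) and 62 lower (12.6%), against 10.8% and 8.25% of all genes, so the isolated share that was higher lay below that of all genes. With a minimum mean signal of 2.5 it did so too, at 9.81% against 10.3%.

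Rprm, a mediator of p53-dependent cell cycle arrest, had 0.297 in mitosis, 4.10 at 1 h, 37.9 at 3 h and 4.26 in asynchronous cells, a 9.25-fold rise between the G1 columns. Tns3, a tensin of focal adhesions, had 1.41, 11.97, 44.3 and 23.4. Cyp26b1, an enzyme that degrades retinoic acid, had 0.760, 12.01, 44.3 and 6.56. Mab21l1 had 0.646, 15.01, 54.9 and 0.328, and Thumpd2, which has a domain of RNA-modifying enzymes, had 0.424, 6.76, 21.5 and 8.27. All 5 were highest at 3 h, a pattern that their choice by the ratio of 3 h to 1 h and by mean signal favours. The falling genes, chosen at the other end of the same ratio, had their peak at 1 h. Atxn7l3b, a relative of a deubiquitinase subunit, had 1.77, 27.9, 4.14 and 15.8, a 6.74-fold fall. Axin2, a feedback inhibitor and target of Wnt signalling, had 1.37, 51.2, 9.66 and 24.4, a 5.30-fold fall. Alg13, a subunit of an N-glycan enzyme, had 1.75, 59.4, 24.7 and 30.4. Nr5a2, a nuclear receptor of the pluripotency network, had 0.782, 33.2, 14.7 and 14.0, and Naf1, an assembly factor of box H/ACA ribonucleoproteins, had 0.494, 18.4, 8.47 and 8.64. Each of these 5 was above its asynchronous value at 1 h. Nr5a2 and Naf1 were close to it at 3 h, at 105% and 98.1%.

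At 3 h the typical isolated promoter stood above its asynchronous level, with a ratio near that of genes at matched signal. Of 487 isolated genes, 129 were at least 2-fold higher (26.5%) and 15 lower (3.08%), against 16.9% and 5.14% of all genes and 29.2% and 3.76% at matched signal. The median log2 ratio was 0.54, against 0.21 for all genes and 0.46 for matched genes, a difference of 0.08. With quantile normalization the split was 83 higher (17.0%) and 43 lower (8.79%), against 11.05% and 9.999% of all genes. With equal medians it was 111 and 22, against 12.96% and 7.91% of all genes. This comparison shares the asynchronous column with those of mitosis and of 1 h. The largest ratios among brighter genes were those of Mab21l1 (167-fold), Rprm (8.90-fold), Cyp26b1 (6.76-fold), Arap2 (6.29-fold) and Plk2 (5.49-fold), as plain ratios of the deposited values. For Mab21l1 the asynchronous value was only 0.328, and the limit on mean signal favours high G1 values in genes with low asynchronous signal. The lowest were those of Atxn7l3b (3.81-fold lower), Stc2 (3.74-fold lower), Axin2 (2.52-fold lower), Ppp2r3d (2.47-fold lower) and Rtl1 (1.80-fold lower).

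Among the 39 isolated developmental transcription factors, 38 could be compared between 3 h and asynchronous cells. At least 2-fold higher were 10 and lower 1, beside 26.5% and 3.08% of all isolated genes and 16.9% and 5.14% of all genes. The median log2 ratio was 0.55, against 0.25 for the listed factors that are not isolated and 0.54 for all isolated genes. At 1 h, 11 were higher and 1 lower, beside 25.9% and 4.52% of all isolated genes and 17.7% and 9.53% of all genes. Their median log2 ratio was 0.43, beside 0.47 for all isolated genes. From 1 h to 3 h, 3 of 39 rose and 3 fell by that fold. The shares for that step were 18.2% and 6.34% of all isolated genes and 15.1% and 7.52% of all genes. Klf6, a zinc finger factor of the early response, had 4.04, 55.8, 34.3 and 25.7. Sall1, a zinc finger factor of kidney and limb development, had 1.62, 25.2, 27.6 and 36.2, below its asynchronous value in both G1 columns. The Iroquois genes, named after their values were seen, did not run in parallel. Irx1 had 0.142, 1.36, 1.38 and 0.883. Irx2 had 0.159, 7.98, 12.9 and 7.05, and Irx3 had 0.471, 5.14, 10.1 and 3.55. Irx5 had 0.404, 4.92, 3.82 and 7.10, below its asynchronous value in G1.

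Of 22 isolated adhesion and guidance genes compared between 3 h and asynchronous cells, 8 were at least 2-fold higher and 0 lower. The shares were 16.9% and 5.14% of all genes, and 29.2% and 3.76% of genes matched to all isolated genes. No genes were matched to this list alone. The median log2 ratio of the 22 was 0.85, against 0.42 for the others of that list. From 1 h to 3 h, 6 of 24 were higher and 1 lower. The shares for that step were 15.1% and 7.52% of all genes, and 25.2% and 7.53% of genes matched to all isolated genes. The median of the 24 was 0.42, against 0.35 for the others of that list. Slitrk5, a synaptic membrane protein, had 0.0241, 5.70, 19.4 and 2.95, and was highest at 3 h. Slit2, a secreted ligand of Robo receptors, had 1.12, 15.5, 8.82 and 5.77, and Epha4 had 1.08, 48.9, 38.9 and 15.1. Both were highest at 1 h. Cadm1, an immunoglobulin adhesion molecule, had 0.379, 9.97, 7.95 and 6.05, and Tenm4, a teneurin, had 0.296, 4.21, 8.12 and 6.57.

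Secreted regulators and matrix genes included several with low asynchronous signal. Of 6 isolated growth factors and morphogens, 5 were at least 2-fold higher at 3 h than in asynchronous cells. The share was 16.9% of all genes, and 29.2% of genes matched to all isolated genes rather than to this list. The median log2 ratio of the 6 was 1.29, against 0.51 for the others of the list. Vegfc, a lymphatic growth factor whose TSS lies inside another coding gene, had 0.315, 8.58, 17.0 and 5.85. Pdgfc, a platelet-derived growth factor, had 0.421, 12.1, 9.34 and 3.87. Tgfbr2, a receptor for TGF-beta, had 0.149, 1.83, 6.57 and 2.55, and Fstl4, a follistatin-like protein, had 0.0457, 0.715, 5.42 and 0.722. Dkk1, a secreted Wnt inhibitor, had 0.0761, 7.36, 6.46 and 3.86 and was under that fold. Of the 4 matrix genes, 3 were higher, beside the same 16.9% and 29.2%. Vcan, the proteoglycan versican, had 0.183, 8.27, 9.93 and 1.29. Gpc4, a glypican, had 0.574, 16.8, 21.0 and 7.30, and Col22a1, a collagen, had 0.0347, 0.707, 4.10 and 0.585. Sdc2, a syndecan, had 0.107, 3.44, 2.04 and 2.27.

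Markers of fibroblasts, the kind of cell used as feeders, moved in the same direction at 3 h. The 6 of 15 chosen feeder markers that the table lists summed to 1.03 in mitosis, 24.2 at 1 h, 62.4 at 3 h and 26.5 in asynchronous cells. Twist1 was listed at 0 in mitosis, and no other marker was at 0 in any column. The 29 naive pluripotency factors summed to 101, 2605, 2343 and 2343, with none at 0. Both Twist1 and Snai2, transcription factors of mesenchyme, were isolated. Twist1 had 5.91 at 1 h, 7.90 at 3 h and 1.58 in asynchronous cells. Snai2 had 0.169, 1.02, 5.64 and 0.727. The part of feeder cells in the rises at 3 h was not tested.

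The isolated pluripotency genes had returned by 1 h to values near or above those of asynchronous cells. Of the 5, none was 2-fold higher or lower at 3 h than in asynchronous cells, beside 16.9% and 5.14% of all genes. The median log2 ratio was 0.07, against -0.05 for the 24 others of that list. At 1 h, Nr5a2 and Lifr, the receptor of LIF, were at least 2-fold higher, beside 17.7% of all genes. The median log2 ratio of the 5 at 1 h was 0.41, against 0.25 for the others of that list. Lifr had 0.933, 32.0, 20.4 and 13.7, and Nr0b1, an orphan nuclear receptor, had 0.703, 16.4, 11.96 and 17.0. Of the 3 immediate early genes, Btg1, an antiproliferative factor, had 8.75, 154, 127 and 42.6, and Myc had 1.23, 22.7, 23.4 and 17.5. Btg1 and Klf6 were at least 2-fold above asynchronous cells at 1 h, and Btg1 was still so at 3 h. The shares over all genes were 17.7% and 16.9%. The median log2 ratio of the 3 at 1 h was 1.12, against 0.55 for the others of that list. Plk2 was the only isolated gene on the list of p53 targets used here, which does not hold Rprm. It had 34.3, 239, 198 and 36.1, above its asynchronous value in both G1 columns.

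Of the isolated receptors and channels described here, all but Grik3 lay below the other genes' median asynchronous signal of 9.70. Grik3, a kainate receptor subunit, had 0.872, 15.7, 19.4 and 14.4. Kcnn2, a calcium-activated potassium channel, had 0.329, 7.55, 5.38 and 5.98. Both were near or above their asynchronous value in G1. Htr1b, a serotonin receptor, had 0.166, 6.79, 3.54 and 2.36. P2ry1, an ADP receptor, had 0.0602, 3.02, 2.49 and 1.72. Trpc5, a cation channel, had 0.170, 3.09, 2.23 and 1.25. These 3 stood above their asynchronous value at both times. Of 9 isolated channels and transmitter receptors, 2 were at least 2-fold higher at 3 h and 0 lower, beside 16.9% and 5.14% of all genes. Fzd1, a Wnt receptor, had 0.467, 7.11, 7.50 and 4.47. Adgra3, an adhesion receptor coupled to G proteins, had 0.192, 3.42, 3.41 and 5.98, and Lpar4, a lysophosphatidic acid receptor, had 0.0458, 1.34, 0.929 and 0.608. Of these 3, Lpar4 alone was at least 2-fold higher at 1 h, beside 17.7% of all genes. Among the 11 isolated zinc finger genes, 2 were 2-fold higher at 3 h and 3 at 1 h, beside 16.9% and 17.7% of all genes. Zfp462 had 1.53, 31.5, 31.2 and 26.1, and Zfp330 had 0.623, 22.5, 11.3 and 10.2.

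The 5 most remote promoters all had signal in both G1 columns. Nap1l3, a relative of a histone chaperone on the X chromosome, lay 7352 kb from the next listed TSS and had 0 in mitosis, 0.855 at 1 h, 2.97 at 3 h and 0.763 in asynchronous cells. Dsel, an enzyme related to dermatan sulfate epimerase, lay 5068 kb away and had 0.671, 10.8, 10.97 and 12.5. Diaph2, a formin that nucleates actin, lay 3939 kb away and had 0.138, 2.34, 4.87 and 2.26. Of these, only Dsel had its highest value in asynchronous cells. Gtdc1, a glycosyltransferase, lay 3886 kb away and had 0.0904, 1.85, 2.31 and 1.66. Dcaf12l1, a WD repeat protein, lay 2640 kb away and had 0.169, 2.56, 1.08 and 1.44. Nap1l3, Diaph2 and Gtdc1 were highest at 3 h, and Dcaf12l1 at 1 h.

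For 1 h against asynchronous cells, the difference between isolated and matched genes was 0.04 for the 246 promoters with a neighbour at 300 to 500 kb, 0.24 for the 170 at 500 to 1000 kb and 0.27 for the 71 beyond 1000 kb. The shares at least 2-fold higher at 1 h were 19.9%, 29.4% and 38.0%, beside 17.7% of all genes. Among genes matched to all isolated genes, rather than to each distance range, the share was 22.5%. From 1 h to 3 h the differences were -0.02, -0.15 and -0.29. For mitotic against asynchronous cells they were -0.00, 0.08 and 0.17, and for 1 h against mitotic cells -0.01, 0.20 and 0.19. At 3 h against asynchronous cells they were 0.07, 0.08 and 0.01. The difference was not steady with distance over the whole table. Genes with a neighbour within 1 kb also differed from their own matched genes, by 0.13 for 1 h against asynchronous cells and -0.15 for 3 h against 1 h, and those with a neighbour at 1 to 10 kb differed by -0.10 and 0.08.

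**Figure D4:**
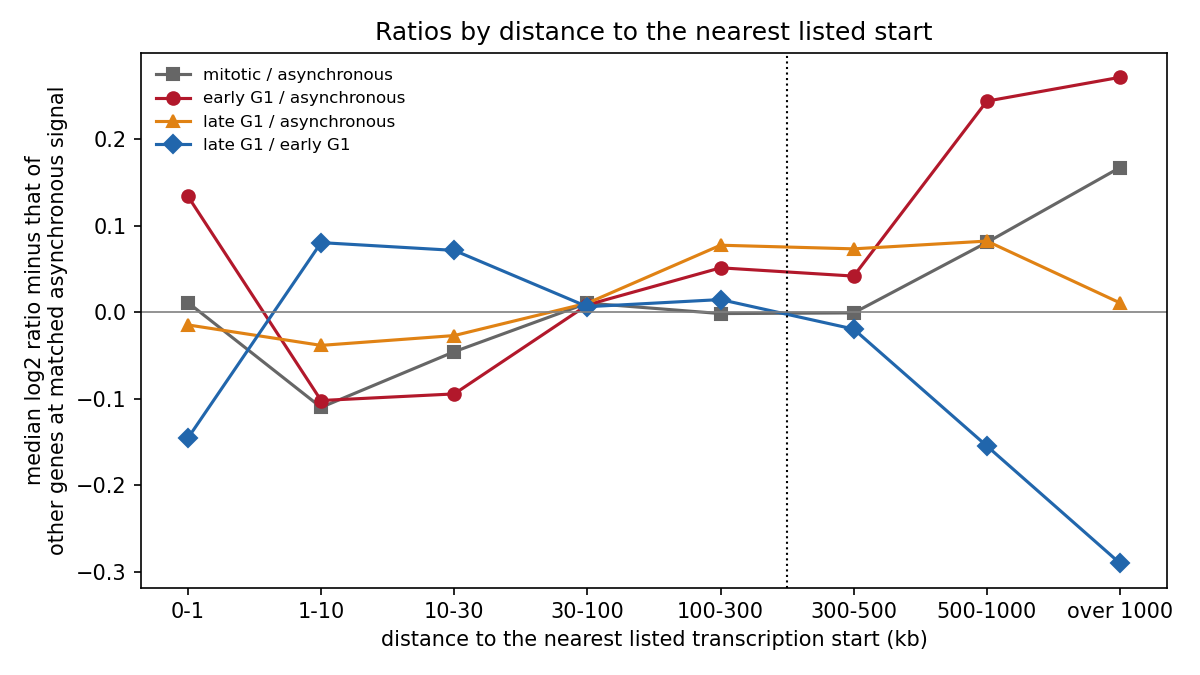
Median log2 ratio minus that of other genes at matched asynchronous signal, by distance to the nearest listed TSS in kb, with 1 line for each of 4 comparisons and a dotted line at 300 kb. For 1 h against asynchronous cells the difference is 0.13 within 1 kb, -0.10 at 1 to 10 kb and 0.27 beyond 1000 kb.

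Within the isolated genes, the ratio of 3 h to 1 h was highest in the longest ones. Its median log2 value was 0.03 for genes up to 10 kb, -0.23 at 10 to 30 kb, -0.20 at 30 to 100 kb, 0.27 at 100 to 300 kb and 0.80 over 300 kb. The other genes of the same lengths had -0.06, -0.11, -0.17, 0.12 and 0.80. Of 59 isolated genes over 300 kb, 19 were at least 2-fold higher at 3 h than at 1 h and 0 lower, and of 132 others of that length 36.4% were higher. For 1 h against asynchronous cells the isolated medians were 0.32, 0.48, 0.64, 0.52 and 0.07 in the same order, against 0.10, 0.28, 0.52, 0.41 and 0.02 for the others. The longest genes were thus near their asynchronous level at 1 h whether isolated or not. As examples named after their values were seen, Agap1, an Arf GTPase-activating protein of 440 kb, had 0.356, 7.73, 21.3 and 5.34, and Ptprg, a receptor phosphatase of 689 kb, had 0.318, 5.49, 13.7 and 6.39. Sntg1, a syntrophin of 593 kb, had 0.929, 29.7, 27.7 and 20.9, with no rise after 1 h.

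**Figure D5:**
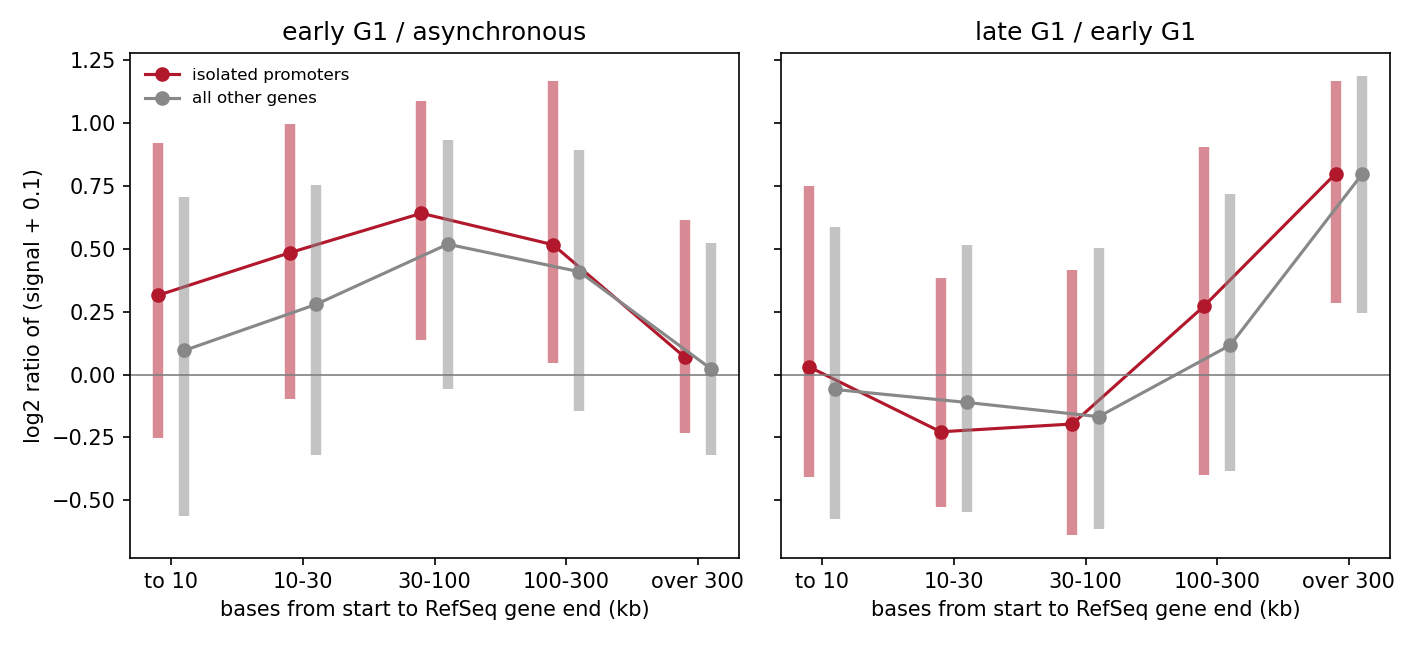
Median log2 ratio of (signal + 0.1) by gene length in kb for isolated promoters and all other genes, for 1 h against asynchronous cells and 3 h against 1 h, with bars from the lower to the upper quartile. Both sets reach 0.80 for 3 h against 1 h in genes over 300 kb.

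The table also gives the authors' temporal class of each gene, which describes the same 4 columns and whose making the sources used here do not describe. Of the isolated genes, 197 (39.1%) were in the class Transient, against 24.1% of the others and 37.1% at matched signal. Early_Spike held 173 (34.3%), against 33.6% and 30.9%. Early_Plateau held 93 (18.5%), against 26.6% and 18.5%, and Gradual held 41 (8.13%), against 15.7% and 13.5%. The isolated genes called Transient had medians of 0.118 in mitosis, 2.11 at 1 h, 4.43 at 3 h and 1.64 in asynchronous cells, and those called Gradual had 0.189, 3.02, 3.32 and 5.98.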

How the data were processed

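PRO-seq was measured in 8 libraries of 4 groups. The authors deposited 1 table with a normalized signal per gene in 4 combined columns, per the file headers. The submitters' processing notes name SAMtools, Picard, Bowtie2 and cutadapt and the build GRCm38 (mm10), without versions or roles. The counting, the scaling and the way libraries were combined are not given in the sources used. By the meaning of its name, the early G1 column was taken as the 1 h release and the late G1 column as the 3 h release.

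The members and gene lists were chosen with earlier results of these data known. Log2 ratios of (signal + 0.1) were computed for genes with a mean signal of at least 0.5, which understates the change of low genes. Genes at least 2-fold higher or lower were counted. Other genes were weighted to the isolated genes' asynchronous signal over 20 bins, or over 10 bins of signal and 5 of length. Folds and percentages of single genes are plain ratios of the deposited signal, while the shares past 50% of the asynchronous level carry the pseudocount. A limma fit was planned for library columns. With 1 column per group, descriptions replaced it, with no p-value or SD. Depth is unknown, so no counting interval is given.

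Named were the 8 isolated genes with the highest asynchronous signal, the 5 highest and 5 lowest ratios of each of 4 comparisons among those at or above the table's median mean signal (108 isolated genes), without clone names, the 5 most remote, up to 5 per list by mean signal, and 3 on each side of the limit. A gene that the rule selects is not reported here. Genes outside this rule (those past 50% only at 3 h or never, the Iroquois genes and the longest genes) were chosen after their values were seen. Of the 504, 489 matched RefSeq (GRCm38.p6) by symbol and 10 by synonym. The weighting was tested on simulated data. Python 3.11.15, pandas 2.3.3 and numpy 2.4.6 were used. Alternatives covered the distance, RefSeq genes, matching, pseudocount, minimum signal, zeros and scaling.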

Additional observations from a re-analysis of the deposited data

How the results depend on the processing

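No paired analysis was possible because each group has 1 combined column that carries no replicate letters, and for the same reason leaving out a library could not be run. The values below are differences of median log2 ratios between isolated and matched genes, or percentages of isolated genes at least 2-fold higher or lower. Of 80 differences under alternatives, 69 kept their sign and moved by no more than 0.1, 9 kept it and moved further, and 2 changed sign. Over all alternatives the difference ran from -0.01 to 0.17 for mitotic against asynchronous cells, 0.03 to 0.26 for 1 h against mitotic, -0.26 to 0.03 for 3 h against 1 h, 0.04 to 0.24 for 3 h against asynchronous cells and 0.02 to 0.30 for 1 h against asynchronous cells. With a limit of 500 kb, 1 h against mitotic gave 0.22 and 1 h against asynchronous cells 0.25. With 500 kb and length matched as well, an alternative chosen after seeing the data, these were 0.26 and 0.29, and 3 h against 1 h was -0.26. With no end of another RefSeq coding gene within 300 kb either, 3 h against 1 h reversed to 0.032, mitotic against asynchronous cells changed sign to -0.0089 and 1 h against asynchronous cells gave 0.018, and the cause was not tested. With other genes matched on mean signal, mitotic against asynchronous cells gave 0.17, 3 h against asynchronous cells 0.24 and 1 h against asynchronous cells 0.30.

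A minimum mean signal of 2.5 left 9.81% higher at 3 h than at 1 h (10.3% of all genes) and 17.4% higher at 3 h than in asynchronous cells (13.4%). Keeping genes with a 0 made 0.606% higher in mitosis (0.209% of all genes). The shares of all genes under each scaling stand beside the counts of each comparison in the text above. With columns rescaled to equal medians, 11.3% were higher and 3.33% lower in mitosis than in asynchronous cells, 5.37% and 12.8% at 1 h than in mitosis, and 12.02% and 8.15% at 1 h than in asynchronous cells. With quantile normalization the shares were 10.6% and 3.13%, 7.87% and 7.25%, and 14.7% higher in the same order, with 8.54% and 12.6% at 3 h against 1 h and 17.0% and 8.79% at 3 h against asynchronous cells. Without depths or replicates, small differences cannot be told from noise.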
